A study of Mus musculus with 14 samples.

Results

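F-box protein genes were followed across 14 polyadenylated RNA libraries from mouse oocytes. Members were the genes whose symbol begins with Fbxw, Fbxl or Fbxo and a number, without Fbxo5 and Fbxo43, that were protein-coding, listed in both deposited tables and at 1 TPM or more in at least 2 libraries of a table. TPM is transcripts per 1000000 transcripts, a unit scaled per gene length. This gave 63 genes of the 34238 symbols present in both tables: 14 Fbxw copies in a cluster on chromosome 9, 9 other Fbxw genes, 16 Fbxl genes and 24 Fbxo genes. Of 78 symbols with the pattern, the others were 12 genes under the level limit, the excluded pair and 1 antisense gene. Nearest to the limit, Fbxl18 was kept with 2 SN and NSN libraries over it and a highest value there of 2.88 TPM, and Fbxl15 (2.53 TPM) and Fbxo48 (1.02 TPM) were left out with 1 library each.

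F-box proteins are the substrate-binding parts of SCF ubiquitin ligases. The F-box binds the adaptor Skp1, which sits on the scaffold Cul1, and the RING protein Rbx1 on the same scaffold brings in the ubiquitin-conjugating enzyme. The second domain of an F-box protein holds the substrate and gives the families their names: WD40 repeats in Fbxw, leucine-rich repeats in Fbxl and other or no known domains in Fbxo. In oocytes, SCF ligases are known for acting on cell-cycle proteins during meiotic arrest and maturation, and the Fbxw copies of chromosome 9 belong to a family that expanded in rodents.

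The study overexpressed Rnaseh1, the enzyme that cuts the RNA strand of RNA:DNA hybrids and so removes R-loops, and its title concerns R-loops and histone H3 methylation at the SN stage. The first table held SN oocytes, with a surrounded nucleolus, overexpressing Rnaseh1, SN oocytes overexpressing mCherry, a fluorescent protein used as the control, and NSN oocytes, with a non-surrounded nucleolus, overexpressing Rnaseh1 or mCherry. The second table, called the rescue set, held oocytes overexpressing Rnaseh1 together with Supt6, which encodes a histone chaperone of elongating RNA polymerase II, oocytes overexpressing Rnaseh1, and oocytes overexpressing mCherry, with no stage in the labels. Each of the 7 groups had 2 libraries, and every group overexpressed a construct. Strain, age, number of animals and the construct's promoter are not given in the labels. The labels do not tie the 2 libraries of each group to separate animals or pools. The p-values therefore set a difference between groups against the spread between these libraries, which may be technical.

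Rnaseh1 was at 2270 and 2017 TPM in rescue Rnaseh1+Supt6 libraries, 1243 and 625 TPM in rescue Rnaseh1 libraries and 125 and 114 TPM in rescue mCherry libraries. It was at 1361 and 1083 TPM in SN Rnaseh1 against 81.0 and 131 TPM in SN mCherry, and at 745 and 229 TPM in NSN Rnaseh1 against 137 and 108 TPM in NSN mCherry. Supt6 was at 28.2 and 21.0 TPM in rescue Rnaseh1+Supt6 and between 2.55 and 3.28 TPM in the other 4 rescue libraries, so the overexpressed genes followed the labels. The 13 genes of an oocyte marker list were all detected in both tables. Their summed level was 18717 and 19779 TPM in rescue Rnaseh1+Supt6 and 6132 and 5871 TPM in rescue Rnaseh1, against 18984 and 20245 TPM in rescue mCherry. Of 14 granulosa and cumulus cell markers, Amh, Amhr2 and Foxl2 were at 0 in all libraries. In each table, 2 of the 14 were at 1 TPM or more in at least 2 libraries. The summed level was between 41.2 and 49.0 TPM in the rescue set and between 22.2 and 49.2 TPM in the SN and NSN set. The 2 SN mCherry libraries differed widely from each other, as did the 2 NSN Rnaseh1 libraries. Summed oocyte markers were 7499 TPM in SN mCherry replicate 1 and 20660 TPM in replicate 2. In NSN Rnaseh1 they were 14200 TPM in replicate 1 and 6320 TPM in replicate 2. With 2 libraries per group, neither can be named the odd one. TPM is a share of a library's transcripts, so fewer transcripts of a gene and more transcripts of other genes cannot be told apart, nor can fewer cells and less RNA per cell.

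The 14 cluster copies lay side by side on chr9:109139447-109790670 (GRCm38), a stretch of 651 kb in which all 14 were on the minus strand and the gaps between neighbours were 12.1 to 56.7 kb. In coordinate order they were Fbxw21, Fbxw13, Fbxw20, Fbxw14, Fbxw28, Fbxw22, Fbxw16, Fbxw19, Fbxw15, Fbxw24, Fbxw25, Fbxw18, Fbxw26 and Fbxw27. The first 90 coding bases of 8 copies are shown because they let a reader see how alike the copies are whose levels are compared in the results. They are 4 of the copies with the largest increases in Rnaseh1 oocytes (Fbxw24, Fbxw16, Fbxw27, Fbxw20), a highly expressed copy with a small increase and a member of the closest pair (Fbxw15, Fbxw28), and the pair that was lower (Fbxw21, Fbxw19). Fbxw25, whose increase was larger than those of Fbxw27 and Fbxw20, is not shown. All are read 5′ to 3′ from the GENCODE M21 transcripts, and capitals mark the bases that differ from Fbxw24.
Fbxw24 (chr9:109625939-109626028): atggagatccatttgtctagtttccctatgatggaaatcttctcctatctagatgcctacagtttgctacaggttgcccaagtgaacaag
Fbxw16 (chr9:109449019-109449108): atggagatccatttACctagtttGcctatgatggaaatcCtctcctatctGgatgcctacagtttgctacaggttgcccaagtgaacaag
Fbxw27 (chr9:109790530-109790619): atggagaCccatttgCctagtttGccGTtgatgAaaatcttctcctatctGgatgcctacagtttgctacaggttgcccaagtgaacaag
Fbxw20 (chr9:109234613-109234702): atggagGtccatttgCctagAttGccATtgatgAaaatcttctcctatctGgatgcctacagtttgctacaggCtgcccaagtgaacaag
Fbxw15 (chr9:109568141-109568230): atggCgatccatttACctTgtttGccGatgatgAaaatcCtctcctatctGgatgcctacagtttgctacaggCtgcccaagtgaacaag
Fbxw28 (chr9:109339533-109339622): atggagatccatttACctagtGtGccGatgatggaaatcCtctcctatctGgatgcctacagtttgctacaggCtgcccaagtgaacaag
Fbxw21 (chr9:109161900-109161989): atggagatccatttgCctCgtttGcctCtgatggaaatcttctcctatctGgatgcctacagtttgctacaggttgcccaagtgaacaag
Fbxw19 (chr9:109495758-109495847): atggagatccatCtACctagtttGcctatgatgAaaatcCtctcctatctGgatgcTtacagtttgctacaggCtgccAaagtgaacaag

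Within these 90 bases the copies differed from Fbxw24 at 5 positions in Fbxw16 and Fbxw21, at 7 in Fbxw27, at 8 in Fbxw28, at 9 in Fbxw20 and at 10 in Fbxw15 and Fbxw19. Over the whole coding sequence, identity across the 91 pairs of the cluster was 79.2% to 99.1%, with a median of 83.7%. The highest was Fbxw14 with Fbxw28 and the lowest Fbxw24 with Fbxw28. Fbxw17, a related gene on chromosome 13, was 53.1% to 54.9% identical to the cluster copies.

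The authors' counting could split reads between such copies. The share of a gene's 50-base words that also occur in another gene's transcripts was 67.59% for Fbxw14 and 67.06% for Fbxw28, so the level of either one is uncertain. For the whole cluster this share was 5.77% to 67.59% with a median of 10.78%, and it was over 10% in 8 of 14 copies. Fbxw24 had the lowest share in the cluster. Fbxw16 had a share of 15.4%, and 9.39% of its words occurred in transcripts of Fbxw23, which is not among the members. Outside the cluster the median share was 0 and 1 of 49 members was over 10%: Fbxo34, at 25.17%. Exons of 7 members overlapped exons of another gene on the opposite strand over more than 10% of their bases, among them Fbxw8 (33.4%), Fbxw4 (21.4%) and Fbxw16 (11.7%). Strandedness of the libraries is not given in the sources used here, so reads of these genes and of their antisense partners may not have been told apart.

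RefSeq start sites were given for 47 members, 11 of them cluster copies (Fbxw13, Fbxw22 and Fbxw27 are named only). The 150 bases before the start are shown for the copy with the highest level, the copy with the largest increase, the closest pair, and, as a contrast outside the cluster, Fbxo7, one of the genes with the largest decreases. They are from RefSeq on GRCm38.p6, read 5′ to 3′ on the minus strand of chromosome 9 for the Fbxw copies and on the plus strand of chromosome 10 for Fbxo7, and capitals mark each match to CANNTG, the E-box pattern.
Fbxw24 (chr9:109626060-109626209): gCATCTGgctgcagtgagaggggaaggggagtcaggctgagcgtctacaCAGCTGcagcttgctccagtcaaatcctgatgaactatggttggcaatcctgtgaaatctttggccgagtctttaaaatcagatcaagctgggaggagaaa
Fbxw16 (chr9:109449141-109449290): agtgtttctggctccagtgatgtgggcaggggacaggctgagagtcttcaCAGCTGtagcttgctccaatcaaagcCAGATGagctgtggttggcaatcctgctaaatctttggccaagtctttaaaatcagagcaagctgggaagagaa
Fbxw14 (chr9:109287677-109287826): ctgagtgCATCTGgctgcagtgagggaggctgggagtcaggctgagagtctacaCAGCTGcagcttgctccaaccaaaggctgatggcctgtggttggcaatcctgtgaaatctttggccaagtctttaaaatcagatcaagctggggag
Fbxw28 (chr9:109339660-109339809): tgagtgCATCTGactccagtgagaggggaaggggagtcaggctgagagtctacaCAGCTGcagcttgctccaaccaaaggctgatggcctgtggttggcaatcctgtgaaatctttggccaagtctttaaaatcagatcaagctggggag
Fbxo7 (chr10:86021779-86021928): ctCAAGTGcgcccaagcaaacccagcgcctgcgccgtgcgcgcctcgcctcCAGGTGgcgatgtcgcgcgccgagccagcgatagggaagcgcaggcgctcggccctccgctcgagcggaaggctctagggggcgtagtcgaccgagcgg

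Identity between the 150-base windows was 47.7% to 94.7% over the 55 pairs of the 11 copies, with a median of 81.4%, and the highest value was again that of Fbxw14 with Fbxw28. CANNTG, searched on both strands, was found in 11 of 11 cluster windows, in 20 of 36 windows of other members (55.6%) and in 47.4% of all 27025 RefSeq windows of that length. Its form CAGCTG, looked at after the sequences had been seen, was found in 11 of 11 cluster windows, in 7 of 36 other windows and in 8.2% of all windows. GGGCGG, the GC-box core, was found in 0 of 11 cluster windows, in 24 of 36 other windows and in 29.0% of all, and TATAAA in 0 of 11, in 0 of 36 and in 8.1%. The cluster windows had 49.3% to 54.0% GC, while the median of other members was 61.7% and the window of Fbxo7 had 72.7%.

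In level, the cluster copies stood far above the other F-box genes. All 14 averaged at least 100 TPM in both tables, from 276 to 6998 TPM (median 2363) in the rescue set and from 284 to 9946 TPM (median 3066) in the SN and NSN set. Among the 49 other members, 5 in each table reached that level. Other Fbxw genes averaged 3.24 to 338 TPM, Fbxl genes 1.73 to 152 TPM and Fbxo genes 1.10 to 271 TPM in the rescue set. Fbxw24 was the highest member in both tables, and it ranked between the fourth and the twentieth place among all genes in rescue libraries and between the third and the tenth in SN and NSN libraries. Between 9 and 11 copies were among the 100 highest genes of each library.

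**Figure D1:**
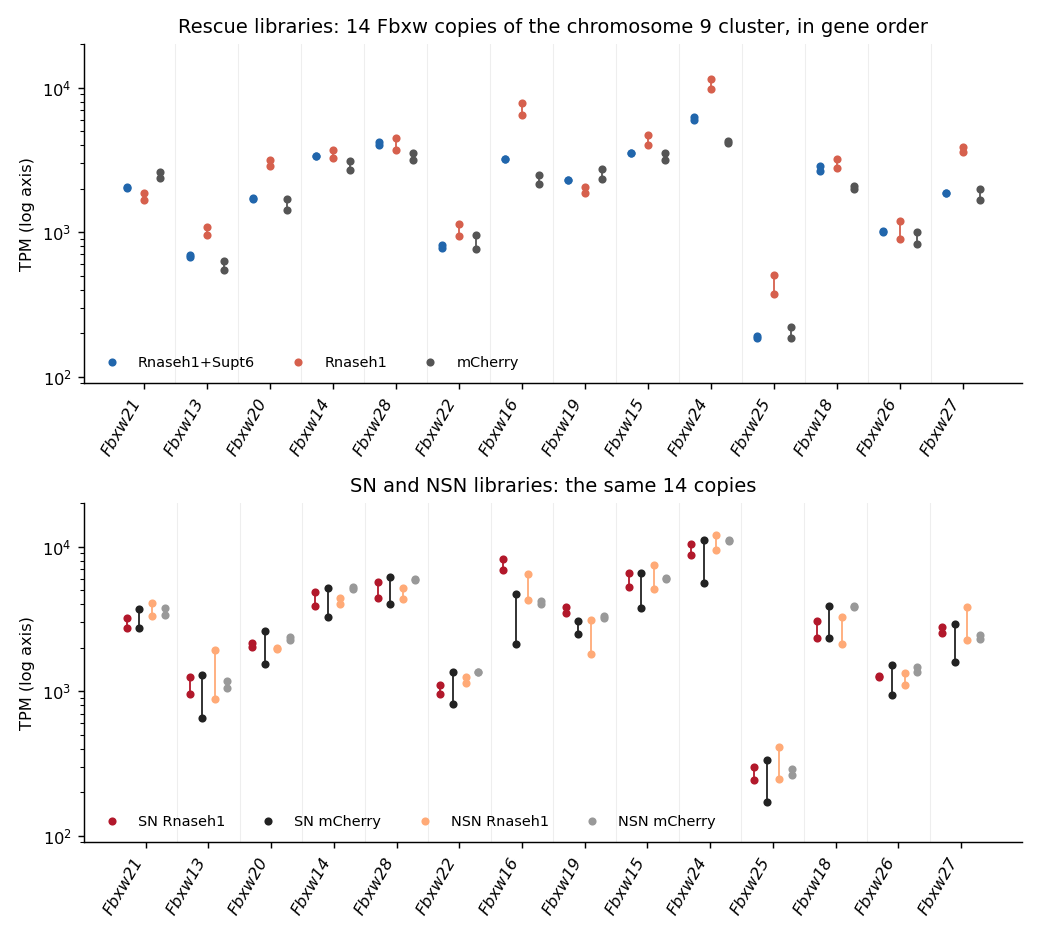
Level (TPM, log axis) of the 14 chromosome 9 Fbxw copies in gene order, with a point per library and a line joining the 2 libraries of a group. In the rescue set (top), Fbxw16 was at 6467 and 7871 TPM in Rnaseh1 libraries against 2475 and 2148 TPM in mCherry libraries, while in the SN and NSN set (bottom) the SN Rnaseh1 and SN mCherry libraries overlapped for 12 of the 14 copies.

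Summed over the 14 copies, the cluster made up 3.33% and 3.41% of all TPM in rescue Rnaseh1+Supt6 libraries and 4.31% and 5.03% in rescue Rnaseh1 libraries, against 3.09% and 2.73% in rescue mCherry libraries. The Rnaseh1 libraries were both above those of the other groups. The 49 other members together were lowest in the same libraries, with 0.223% and 0.232% in Rnaseh1+Supt6 and 0.131% in both Rnaseh1 libraries, against 0.241% and 0.244% in mCherry. In the SN and NSN set, the cluster made up 4.70% and 5.34% in SN Rnaseh1 against 5.45% and 3.21% in SN mCherry, and 4.60% and 5.26% in NSN Rnaseh1 against 5.18% and 5.2% in NSN mCherry, so the Rnaseh1 and mCherry libraries overlapped at both stages.

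**Figure D2:**
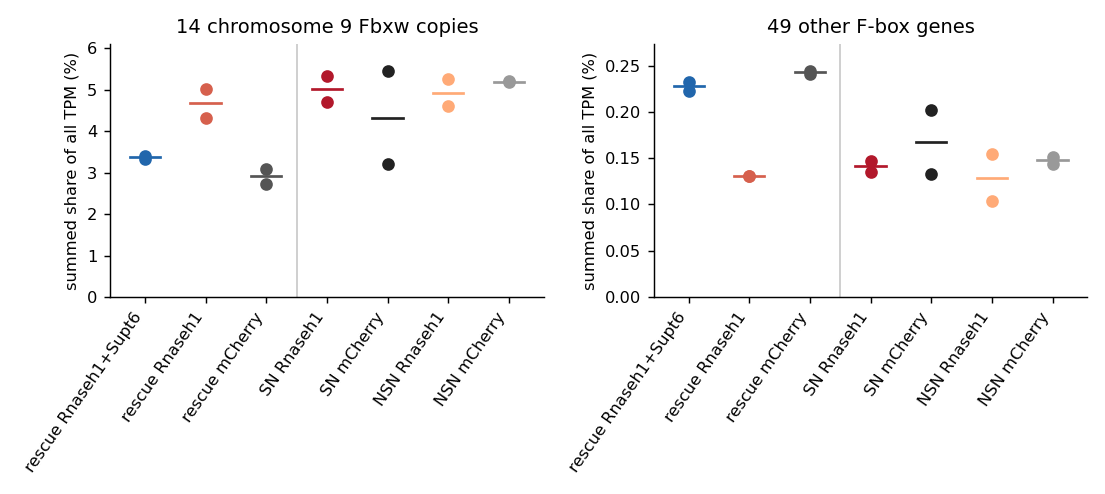
Summed share of all TPM (%) held by the 14 chromosome 9 Fbxw copies (left) and by the 49 other F-box genes (right), with a point per library and a bar at the group mean. In the rescue set the Rnaseh1 libraries were the highest for the copies (4.31% and 5.03%) and the lowest for the other genes (0.131% in both).

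The rescue comparison of Rnaseh1 with mCherry asked how Rnaseh1 overexpression alone changed the oocyte's F-box transcripts. As deposited, 30 of the 49 F-box genes outside the cluster fell, some of them more than 10-fold, while most cluster copies and a smaller set of other members rose. By limma on log2(TPM + 1) with a threshold of 0.05 on the p adjusted over all 12859 genes tested, 18 of 63 members were higher and 32 were lower in Rnaseh1 oocytes. The 32 include 5 that passed the level limit in this table only through the other groups (Fbxl7, Fbxl8, Fbxl18, Fbxl19 and Fbxo10). Of all genes tested, 20.3% were higher and 46.2% were lower, so members changed at rates near or a little above the background. The cluster had 10 copies higher and 2 lower of 14, other Fbxw genes 1 and 8 of 9, Fbxl genes 2 and 10 of 16, and Fbxo genes 5 and 12 of 24. The median log2 fold change was 0.46 in the cluster and -0.90 in the 49 other members, beside -0.52 over all genes tested.

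The scale matters here because the median of all genes was itself below 0. With the libraries centred on their medians, the all-gene median was 0.06, 25 members were higher and 24 were lower, and the cluster median was 1.05 with 12 copies higher and 0 lower. With quantile normalization the counts were 21 higher and 26 lower, and with the trend on transcript GC content removed they were 21 and 24. Outside the cluster, 24 of 49 members were lower under median centring, 24 under quantile normalization and 22 after GC removal, which is under 50% of them in each case. The all-gene shares given above belong to the deposited scale. All-gene shares on the other scales are not given here, so these rescaled counts are not read as particular to the members. Cluster and other members kept medians of opposite sign under these 3 scalings, with 0.39 and -0.29 under quantile normalization and 0.39 and -0.33 after GC removal, while the Fbxo median, -0.44 as deposited, was 0.14 under median centring and 0.06 under quantile normalization.

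Among the genes that fell, Fbxl6 was the most reduced. It was at 140.1 and 158 TPM in Rnaseh1+Supt6 libraries, 4.88 and 4.65 TPM in Rnaseh1 libraries and 302 and 299.7 TPM in mCherry libraries. Both Rnaseh1 libraries lay far below the others, with a mean 63.1-fold lower than in mCherry (log2 fold change -5.71 ± 0.11 SE, limma adjusted p = 4.7e-07), and the estimate was -3.99 after GC removal. Fbxw4, which encodes dactylin, a protein known for its part in limb development, showed the same picture. It was at 516 and 555 TPM in Rnaseh1+Supt6, 10.1 and 14.4 TPM in Rnaseh1 and 451 and 479 TPM in mCherry. Its mean in Rnaseh1 was 37.9-fold lower than in mCherry (-5.15 ± 0.15 SE, limma adjusted p = 8e-07), and the estimate was -3.43 after GC removal.

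Fbxo7, known from inherited parkinsonism and from its binding to the proteasome regulator PI31, was at 42.5 and 50.6 TPM in Rnaseh1+Supt6, 6.42 and 5.24 TPM in Rnaseh1 and 52.3 and 49.4 TPM in mCherry. The Rnaseh1 mean was 8.72-fold lower than that of mCherry (-2.93 ± 0.16 SE, limma adjusted p = 6e-06). Fbxo21 was at 19.9 and 19.7 TPM in Rnaseh1+Supt6, 4.05 and 2.03 TPM in Rnaseh1 and 43.9 and 42.4 TPM in mCherry (-3.50, limma adjusted p = 2e-05). In both genes the Rnaseh1 libraries did not overlap any other.

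The further named decreases belonged to genes at lower levels. Fbxo42, an F-box protein that binds p53, averaged 1.03 TPM in Rnaseh1 against 14.1 TPM in mCherry (-2.89). Fbxo10, known for acting on BCL2, averaged 0.640 TPM in Rnaseh1 against 9.59 TPM in mCherry (-2.69). Fbxw5, which acts on the centriole protein SASS6, averaged 1.25 TPM in Rnaseh1 against 12.6 TPM in mCherry (-2.59). These 3 genes had limma adjusted p-values of 7.5e-05 or less. Fbxl8 (-2.45), Fbxo25 (-2.30), Fbxw8, a partner of Cul7 (-2.23), Fbxo38, known for acting on PD-1 (-2.11), and Fbxl20 (-2.09) also fell at limma adjusted p-values of 0.00043 or less. Fbxw8 was no longer past the threshold after GC removal, at -0.58. The estimates after GC removal were also smaller, though past the threshold, for Fbxo25 (-1.88), Fbxo42 (-1.78), Fbxo10 (-1.18), Fbxw5 (-0.96) and Fbxl8 (-0.73). The log2(TPM + 1) scale shrinks ratios of such low genes: Fbxl8 went no higher than 0.350 TPM in Rnaseh1 libraries, and its mean was 19.5-fold lower than in mCherry. That ratio rests on values under 1 TPM, whose counting error is unknown, so the size of the change is uncertain. Fbxl8, Fbxl18, Fbxl19, Fbxl7 and Fbxo10 were under 1 TPM in both rescue Rnaseh1 libraries and so passed the level limit in that table through the other groups.

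**Figure D3:**
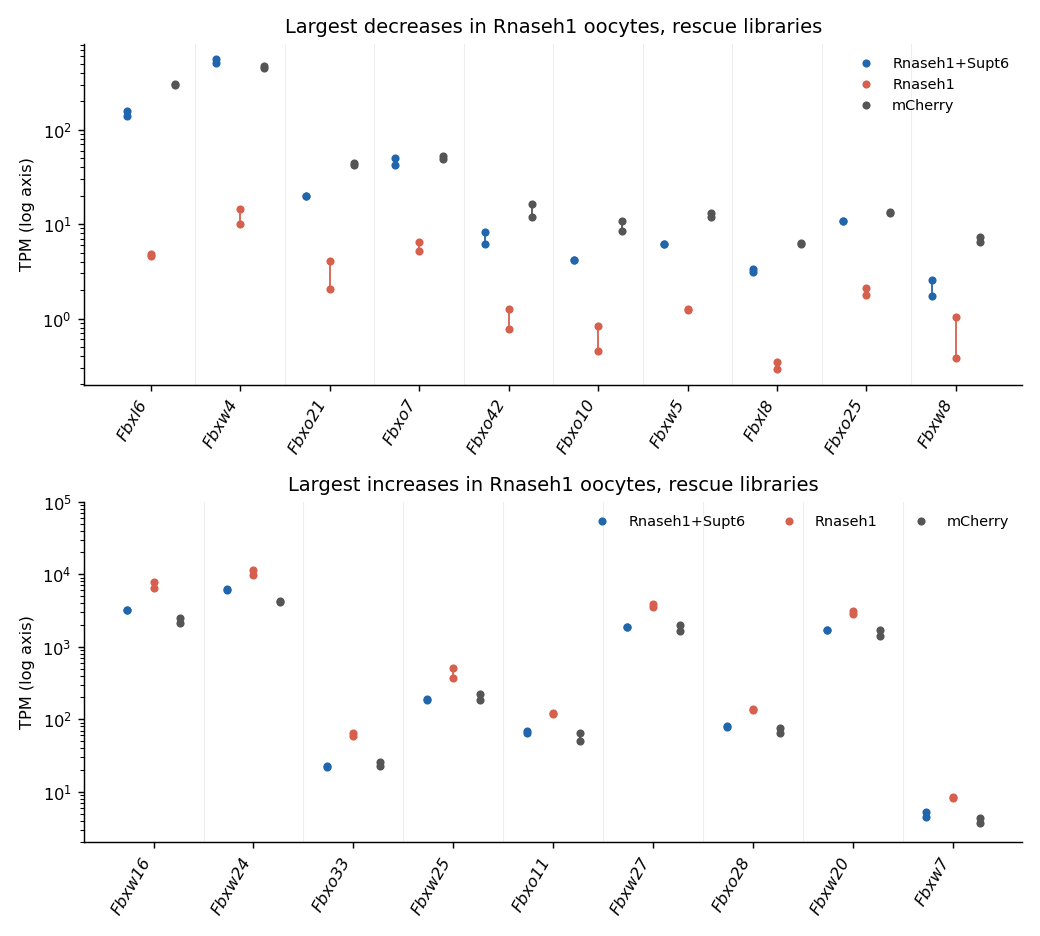
Level (TPM, log axis) of members with the largest decreases (top) and with the largest increases (bottom) in Rnaseh1 against mCherry oocytes of the rescue set, with a point per library. For Fbxl6 the Rnaseh1 libraries were at 4.88 and 4.65 TPM, and for Fbxw16 at 6467 and 7871 TPM. On the log axis, Rnaseh1+Supt6 libraries lay nearer to mCherry than to Rnaseh1 for both genes, and those of Fbxl6 were still below mCherry.

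Fbxo34, described in mouse oocyte meiosis, was at 249 and 234 TPM in Rnaseh1+Supt6, 145 and 116 TPM in Rnaseh1 and 373 and 376 TPM in mCherry. It fell 2.87-fold in Rnaseh1 against mCherry (-1.52 ± 0.12 SE, limma adjusted p = 2.7e-05). Fbxo30, also described in mouse oocyte meiosis, was at 149 and 162 TPM in Rnaseh1+Supt6, 66.5 and 81.9 TPM in Rnaseh1 and 83.8 and 114 TPM in mCherry. Its Rnaseh1 and mCherry libraries did not overlap but the difference was not past the threshold (-0.40, limma adjusted p = 0.071). Fbxo15, a marker of pluripotent stem cells, had -0.49 (limma adjusted p = 0.044), turned positive under median centring and quantile normalization, and was past the threshold without mCherry replicate 2 but not when any of the other 5 rescue libraries was left out.

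Among the genes with well-known substrates, directions were mixed. Fbxl5, the iron-sensing receptor for IRP2, was at 82.2 and 83.4 TPM in Rnaseh1+Supt6, 36.0 and 45.9 TPM in Rnaseh1 and 65.8 and 73.3 TPM in mCherry, and fell (-0.76, limma adjusted p = 0.0025). Fbxw11, one of the pair of beta-TrCP genes, also fell (-0.69, limma adjusted p = 0.039). Both calls depended on the scale: neither was past the threshold under median centring. The Fbxl5 call was kept in 13 of 15 alternative settings. The Fbxw11 call was kept in 5 of 15, was lost after GC removal and with no filter, and its estimate changed sign in 1. Fbxw7, the receptor for cyclin E and Myc, was at 5.26 and 4.52 TPM in Rnaseh1+Supt6, 8.38 and 8.25 TPM in Rnaseh1 and 4.33 and 3.69 TPM in mCherry, and rose (0.90 ± 0.22 SE, limma adjusted p = 0.0081). Its Rnaseh1 libraries were the 2 highest of the 6. Fbxl14, known for acting on Snail, was not called (-0.44, limma adjusted p = 0.12).

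Other genes outside the cluster that rose were Fbxo33, Fbxo11 and Fbxo28. Fbxo33, known for binding YB-1, was at 21.9 and 22.8 TPM in Rnaseh1+Supt6, 64.8 and 59.6 TPM in Rnaseh1 and 26.1 and 23.0 TPM in mCherry (1.31 ± 0.13 SE, limma adjusted p = 0.00011). Fbxo11, the receptor for BCL6, was at 65.5 and 68.3 TPM in Rnaseh1+Supt6, 117 and 122 TPM in Rnaseh1 and 50.7 and 63.9 TPM in mCherry (1.06, limma adjusted p = 0.0003). Fbxo28 was at 80.5 and 78.5 TPM in Rnaseh1+Supt6, 140.2 and 136 TPM in Rnaseh1 and 74.8 and 65.7 TPM in mCherry (0.97, limma adjusted p = 0.00014). In all 3 the Rnaseh1 libraries stood above every library of the other groups.

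Within the cluster, the copies did not all move by the same amount. Fbxw16 was at 3188 and 3217 TPM in Rnaseh1+Supt6, 6467 and 7871 TPM in Rnaseh1 and 2475 and 2148 TPM in mCherry (1.63 ± 0.11 SE, limma adjusted p = 1.4e-05). Fbxw24 was at 5990.3 and 6297 TPM in Rnaseh1+Supt6, 9765 and 11503 TPM in Rnaseh1 and 4292 and 4142 TPM in mCherry (1.33 ± 0.09 SE, limma adjusted p = 1.2e-05). In both copies the order of the groups was Rnaseh1, then Rnaseh1+Supt6, then mCherry, with no overlap. Fbxw25 (1.10), Fbxw27 (1.03), Fbxw20 (0.96), Fbxw13 (0.80), Fbxw18 (0.55), Fbxw15 (0.38), Fbxw28 (0.28) and Fbxw14 (0.26) rose by less. The calls of Fbxw14 and Fbxw28, the pair with the most shared sequence, had limma adjusted p-values of 0.043 and 0.044 and were lost under at least 8 of 15 alternative settings. Fbxw22 (0.28, limma adjusted p = 0.09) and Fbxw26 (0.17, limma adjusted p = 0.33) were not called.

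A pair of copies went the other way. Fbxw21 was at 2019.6 and 2060.4 TPM in Rnaseh1+Supt6, 1669 and 1874 TPM in Rnaseh1 and 2623 and 2368 TPM in mCherry (-0.50 ± 0.08 SE, limma adjusted p = 0.0014). Fbxw19 was at 2307 and 2276 TPM in Rnaseh1+Supt6, 1866 and 2038 TPM in Rnaseh1 and 2739.5 and 2321 TPM in mCherry (-0.37 ± 0.09 SE, limma adjusted p = 0.0092). Their Rnaseh1 libraries were the lowest of the set. Both estimates turned positive under median centring and stayed negative under quantile normalization and after GC removal. Along the chromosome the sizes did not follow the gene order: Fbxw16, with the largest increase, lies next to Fbxw19, which was lower, and Fbxw21 is the outermost copy.

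Transcript GC content moved with these changes. Cluster transcripts had 43.6% to 45.7% GC and other members 38.2% to 60.6%, with a median of 49.4% and with Fbxl6 and Fbxw4 near the upper end. Spearman's rho between GC content and the log2 fold change of Rnaseh1 against mCherry was -0.66 across the 63 members, -0.60 across the 49 outside the cluster and -0.51 across 12580 genes. These are correlations across genes of the same 4 libraries, and genes are not independent replicates. Of the 22 members with at least 50% GC, 0 were higher and 17 were lower, while over all genes in that range 8.7% were higher and 68.4% lower. Of the 27 members under 50% GC outside the cluster, 8 were higher and 13 lower, beside 28.8% and 29.7% of all genes in that range. The part of GC content in the result was not tested beyond its removal as a trend, after which Fbxl6, Fbxw4, Fbxo7 and Fbxo21 were still called lower, and Fbxw16, Fbxw24 and Fbxo33 still higher. Calls lost after that removal were those of Fbxl7, Fbxl12, Fbxl18, Fbxl19, Fbxo31, Fbxo46, Fbxw8, Fbxw9 and Fbxw11 among the lower genes. Among the higher genes they were those of Fbxo3, Fbxo8, Fbxw14 and Fbxw28. The summed oocyte markers were also lower in the Rnaseh1 libraries, with 11 of 13 called lower, and their part in the result was not tested. Of 8 blood and immune cell markers the sum was at most 0.10 TPM in rescue Rnaseh1 libraries and between 1.90 and 4.74 TPM in the other rescue libraries, with Hba-a2, Hbb-bs, Hbb-bt, Lyz2 and Tyrobp at 0 in all 6.

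**Figure D4:**
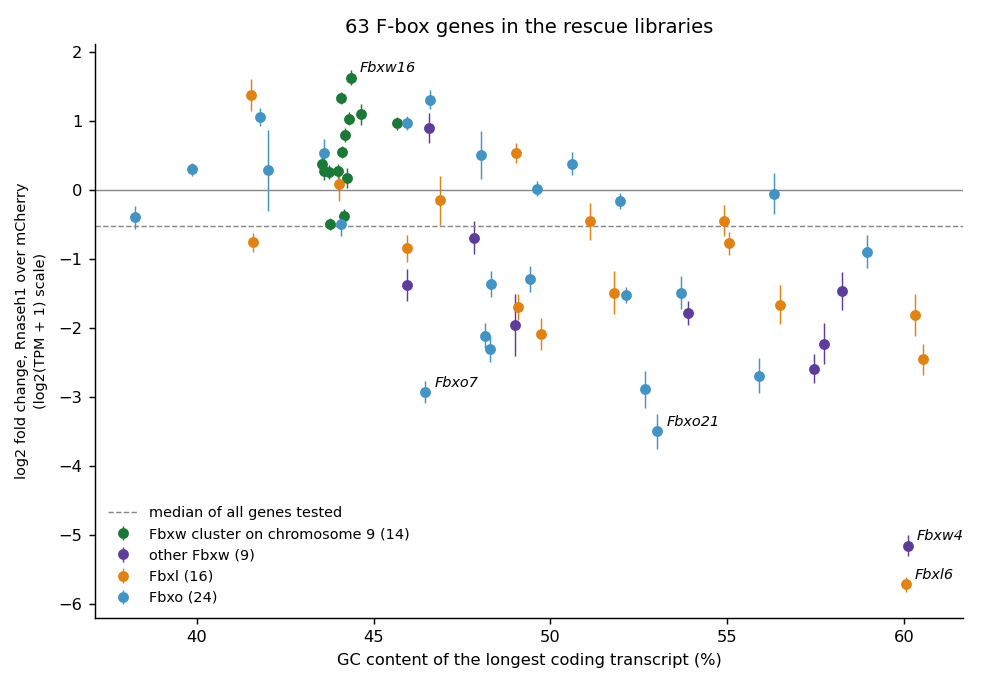
Log2 fold change of Rnaseh1 over mCherry in the rescue set (vertical axis, log2(TPM + 1) scale, bars are limma's SE) against the GC content of the longest coding transcript (%) for the 63 members, coloured by family. The cluster copies sit between 43.6% and 45.7% GC, with 12 of 14 above 0, and Fbxl6 and Fbxw4 lie lowest; the dashed line is the all-gene median of -0.52.

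Adding Supt6 to Rnaseh1 was compared with both other rescue groups, and the 3 comparisons share their libraries, so their values are given side by side and not as separate evidence. Against Rnaseh1, as deposited, the Rnaseh1+Supt6 oocytes had higher levels of 30 of the 49 F-box genes outside the cluster and lower levels of 8 of the 14 cluster copies. There were 30 members higher and 13 lower of 63, beside 41.6% higher and 17.4% lower among all 12859 genes tested. The 30 include Fbxl7, Fbxl8, Fbxl18, Fbxl19 and Fbxo10, which passed the level limit in this table only through the groups other than Rnaseh1. The median log2 fold change was -0.33 in the cluster and 0.90 in the other members, with 0.44 over all genes. The split was 24 higher and 22 lower under median centring, 23 and 14 under quantile normalization, and 17 and 17 after GC removal. Outside the cluster, 24 of 49 members were higher under median centring, 21 under quantile normalization and 17 after GC removal. All-gene shares on these 3 scales are not given here, so the rescaled counts are again not read as particular to the members.

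The largest increases of Rnaseh1+Supt6 against Rnaseh1 were in Fbxw4 (5.35, 43.6-fold, limma adjusted p = 1.3e-06) and Fbxl6 (4.70, 31.3-fold, limma adjusted p = 8.9e-07). Fbxo7 (2.80), Fbxo21 (2.41), Fbxl20 (2.11), Fbxo42 (2.02), Fbxo25 (2.02), Fbxo38 (1.93), Fbxo46 (1.87) and Fbxw10 (1.76) followed. Fbxw10 had 7.49 and 8.31 TPM in Rnaseh1+Supt6 against 2.67 and 0.870 TPM in Rnaseh1, and its call was lost under some settings. The largest decreases were in Fbxo33 (-1.44), Fbxw25 (-1.21), Fbxw16 (-1.16) and Fbxw27 (-1.0), then Fbxo11 (-0.83), Fbxw20 (-0.81), Fbxo28 (-0.79), Fbxw24 (-0.79) and Fbxw7 (-0.66). The calls of Fbxw7 and Fbxw24 were lost under at least 1 alternative setting. Fbxo30 rose as well, with Rnaseh1+Supt6 libraries at 149 and 162 TPM against 66.5 and 81.9 TPM in Rnaseh1 (1.07, limma adjusted p = 0.0014).

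Against mCherry, few members of the Rnaseh1+Supt6 oocytes passed the threshold: 4 were higher and 6 were lower, beside 5.71% higher and 7.6% lower of all genes. The 4 higher were Fbxo30 (0.67, limma adjusted p = 0.044), Fbxw24 (0.54, 0.011), Fbxw16 (0.47, 0.033) and Fbxw18 (0.44, 0.022), in the order of their log2 fold changes. The 6 lower were Fbxw8 (-1.33), Fbxo21 (-1.09), Fbxo10 (-1.03), Fbxl6 (-1.01), Fbxw5 (-0.91) and Fbxo34 (-0.63), with limma adjusted p-values of 0.0044 to 0.04. Fbxl6 was at 140.1 and 158 TPM against 302 and 299.7 TPM in mCherry. Fbxw4 and Fbxo7 were not called, at 0.20 (limma adjusted p = 0.46) and -0.13 (limma adjusted p = 0.68), which does not show that their levels were equal. When a Rnaseh1+Supt6 or a mCherry library was left out, 0 members were higher and at most 1 was lower. Of the 22 members with at least 50% GC, 0 were higher and 6 lower, while over all genes in that range 4.18% were higher and 14% lower.

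The ligase's other subunits were read from a list of SCF genes in the same fit. Of the 4 core genes, 3 rose and 0 fell in Rnaseh1 against mCherry, where 20.3% of all genes were higher and 46.2% lower. Rbx1, the RING subunit, was at 742 and 663 TPM in Rnaseh1+Supt6, 2163 and 1848 TPM in Rnaseh1 and 522 and 464 TPM in mCherry (2.02, limma adjusted p = 5.1e-06). Skp1a, the adaptor, was at 772 and 821 TPM in Rnaseh1+Supt6, 1503 and 1535 TPM in Rnaseh1 and 854 and 813 TPM in mCherry (0.87, limma adjusted p = 3.1e-05). Rnf7, a second RING protein, rose too (1.17, limma adjusted p = 0.00051), and these 3 genes were higher under each of the 3 other scalings. Cul1, the scaffold, was at 614 and 667 TPM in Rnaseh1+Supt6, 552 and 557 TPM in Rnaseh1 and 582 and 620.1 TPM in mCherry. Its log2 fold change was -0.12 (limma adjusted p = 0.21) as deposited, 0.47 under median centring and -0.46 under quantile normalization, so its direction was set by the scale.

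F-box proteins listed under other symbols fell or were not called. In Rnaseh1 against mCherry, 0 of 6 were higher and 4 were lower, beside the same 20.3% and 46.2% of all genes. Btrc, the other beta-TrCP gene, was at 322 and 328 TPM in Rnaseh1+Supt6, 36.4 and 52.6 TPM in Rnaseh1 and 304 and 290.4 TPM in mCherry (-2.74, limma adjusted p = 8.2e-06). Ccnf, which encodes cyclin F, was at 19.6 and 18.2 TPM in Rnaseh1+Supt6, 6.0 and 5.53 TPM in Rnaseh1 and 30.2 and 34.8 TPM in mCherry (-2.31, limma adjusted p = 2e-05). Fbh1 had -1.17 and Kdm2b -0.65, and Kdm2b turned to 0.45 after GC removal. Among 25 tested regulators of cullins, 10 rose and 10 fell in that comparison. Nedd8, the ubiquitin-like protein attached to cullins, was at 793 and 735 TPM in Rnaseh1 against 333 and 321 TPM in mCherry (1.22). The subunits of the COP9 signalosome, which removes it, went in both directions: Cops2 rose (1.14), Cops5 (-0.51), Cops6 (-2.55), Cops7a (-2.81), Cops7b (-2.91), Cops8 (-1.72) and Gps1 (-2.35) fell, and Cops3 (-0.13, limma adjusted p = 0.21) and Cops4 (0.20, limma adjusted p = 0.066) were not called. Against Rnaseh1, Rnaseh1+Supt6 oocytes had 1 core gene higher and 3 lower, and Btrc was 2.87 higher on the log2 scale.

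In the SN and NSN set, 62 members passed the level limit (Fbxl19 did not, with at most 0.730 TPM), and 0 of them were called in any of the 5 comparisons by limma, as were 0.0% of the 12736 genes tested. At an unadjusted p under 0.05, SN Rnaseh1 against SN mCherry had 5 of 62 members, beside 6.74% of all genes, and NSN Rnaseh1 against NSN mCherry had 0 of 62, beside 2.77%. The libraries of the groups did not overlap for 10 members higher and 14 lower in SN Rnaseh1, beside 18.9% and 31.7% of all genes. They did not overlap for 5 members higher and 18 lower in NSN Rnaseh1, beside 10.3% and 22.6%. The cluster accounted for 2 of the higher and 0 of the lower genes in SN, and for 1 and 7 in NSN. The cluster's median log2 fold change was 0.13 in SN, where all genes had -0.22, and -0.12 in NSN, where all genes had -0.29.

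In SN oocytes the smallest p belonged to Fbxo3, at 42.1 and 44.4 TPM in SN Rnaseh1 against 20.2 and 16.2 TPM in SN mCherry (1.21, limma adjusted p = 0.61). Fbxo28 followed at 192 and 190.0 TPM against 99.7 and 109.7 TPM (0.86). Fbxw16 was at 8264 and 6851 TPM in SN Rnaseh1 against 4697 and 2138 TPM in SN mCherry (1.25). Fbxo11 (1.01) and Fbxw7 (1.21) completed the 5, all with the Rnaseh1 libraries above the mCherry ones and all at a limma adjusted p of 0.61. Without SN mCherry replicate 2 the values were 1.06 for Fbxo3, 0.93 for Fbxo28, 0.68 for Fbxw16, 0.60 for Fbxo11 and 0.70 for Fbxw7. Without SN mCherry replicate 1 they were 1.36, 0.79, 1.81, 1.41 and 1.71 in the same order. Fbxl6, the gene most reduced in the rescue set, was at 7.71 and 8.96 TPM in SN Rnaseh1 against 20.8 and 193 TPM in SN mCherry (-2.81, limma adjusted p = 0.61). The mCherry libraries differed more from each other than the nearer of them did from Rnaseh1.

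In NSN oocytes the 2 Rnaseh1 libraries were far apart for Fbxw4 and Fbxo16. Fbxw4 was at 213 and 2.12 TPM in NSN Rnaseh1 against 253 and 137 TPM in NSN mCherry (-2.86, limma adjusted p = 0.76), and the estimate was 0.19 without NSN Rnaseh1 replicate 2 and -5.91 (limma adjusted p = 0.037) without replicate 1. Fbxo16 was at 11.8 and 2.07 TPM in NSN Rnaseh1 against 19.5 and 15.6 TPM in NSN mCherry (-1.56), -0.53 without NSN Rnaseh1 replicate 2 and -2.59 (limma adjusted p = 0.024) without replicate 1. Both values thus depended on which NSN Rnaseh1 library was kept. Fbxo40, known from muscle, where it acts on IRS1, was at 129.6 and 193 TPM in NSN Rnaseh1 against 66.2 and 90.6 TPM in NSN mCherry (1.02). Fbxw10 had a log2 fold change of -1.16 and Fbxl5 one of -0.70, and none of these 5 genes was past the threshold, at a limma adjusted p of 0.76 each. The value of Fbxl5 was -0.20 without NSN Rnaseh1 replicate 2 and -1.19 without replicate 1, and that of Fbxw10 was -0.66 without NSN mCherry replicate 1.

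**Figure D5:**
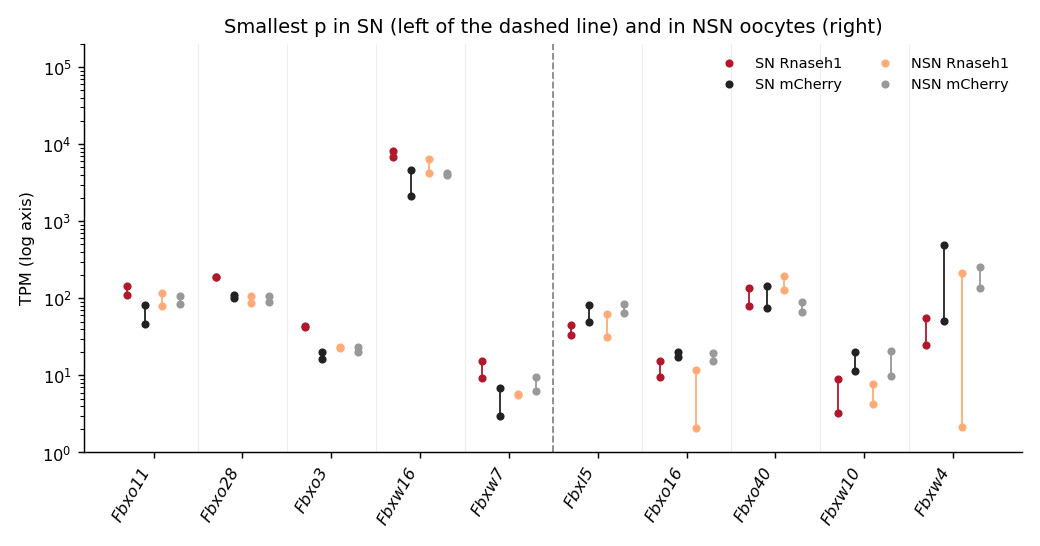
Level (TPM, log axis) of the members with the 5 smallest p-values for Rnaseh1 against mCherry in SN oocytes (left of the dashed line) and in NSN oocytes (right), with a point per library in all 4 groups. Fbxo3 was at 42.1 and 44.4 TPM in SN Rnaseh1 against 20.2 and 16.2 TPM in SN mCherry, and the 2 NSN Rnaseh1 libraries of Fbxw4 were at 213 and 2.12 TPM.

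Between stages, with groups that are shared with the comparisons above, 2 of 62 members had an unadjusted p under 0.05 in SN mCherry against NSN mCherry, beside 2.58% of all genes, and 3 of 62 in SN Rnaseh1 against NSN Rnaseh1, beside 4.59%. The libraries did not overlap for 4 members higher and 8 lower in SN mCherry against NSN mCherry, beside 8.43% and 19.0% of all genes, and for 9 higher and 6 lower in SN Rnaseh1 against NSN Rnaseh1, beside 14.1% and 12.5%. Fbxo45, known from synapses, was at 0.440 and 0.350 TPM in SN mCherry against 2.78 and 2.09 TPM in NSN mCherry (-1.29), and at 0.380 and 0.640 TPM in SN Rnaseh1 against 2.97 and 1.60 TPM in NSN Rnaseh1 (-1.10). Fbxo30 was at 54.0 and 65.2 TPM in SN mCherry against 113 and 86.6 TPM in NSN mCherry (-0.73). The SN libraries lay below the NSN libraries in both genes, and the limma adjusted p was 1.0 for the mCherry values. Fbxo28 was at 192 and 190.0 TPM in SN Rnaseh1 against 87.8 and 108 TPM in NSN Rnaseh1 (0.96, limma adjusted p = 0.92), and Fbxo25 at 3.27 and 0.890 TPM against 6.78 and 6.93 TPM (-1.47). The difference between the SN and the NSN effect of Rnaseh1 was 1.13 for Fbxo3, the 1 member of 62 with an unadjusted p under 0.05, beside 2.26% of all genes, at a limma adjusted p of 1.0.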

How the data were processed

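Values are the authors' deposited TPM per gene, in a table of 35389 identifiers for the 8 SN and NSN libraries and a table of 35341 symbols for the 6 rescue libraries. The submitters' processing notes name RSEM 1.3.3, STAR 2.7.0d, DESeq2, Trim Galore 0.6.7 and mm10, without roles. Per the labels, cDNA was made with SuperScript II, amplified with KAPA HiFi and built into libraries with Vazyme TD503. TPM keeps no depth, so no counting error is given. GENCODE M21 (GRCm38) gave coordinates, biotypes and transcripts, and 70 identifiers stayed without a symbol.

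Each table was fitted alone with limma 3.58.1 (R 4.3.3; lmFit, contrasts.fit, eBayes with trend) on log2(TPM + 1), all its groups sharing one spread, for genes at 1 TPM or more in at least 2 libraries, two-sided, with Benjamini-Hochberg adjustment over all genes tested and a threshold of 0.05. "Rose" and "fell" mean past it. The script was tested on simulated data. Alternatives were other pseudocounts, filters, scalings, GC removal, a replicate block and leaving out libraries. Named were up to 10 members per direction with the largest changes (higher group at 5 TPM or more, no overlap) in each rescue comparison, the 5 smallest p in each other comparison, the cluster copies, 14 members with known roles, and the 5 highest in each table. Further members are named where a count or a level limit concerns them. A gene that the rule names is not reported here. The members and lists were chosen with earlier results of these data known.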

Additional observations from a re-analysis of the deposited data

How the results depend on the processing

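In the rescue set, for Rnaseh1 against mCherry, all alternatives kept the counts of members within 1.5 times of those reported, and leaving out single libraries gave 13 to 19 higher and 30 to 33 lower. Of the members called, 12 of 18 higher and 18 of 32 lower were called in every alternative run, and 8 changed sign in at least 1: Fbxl12, Fbxo15, Fbxo31, Fbxw11, Fbxw19, Fbxw21, Fbxw9 and Fbxo8. For Rnaseh1+Supt6 against mCherry, 0 calls were kept in every alternative. There, members lower numbered 2 with a pseudocount of 0.1, members higher 0 and lower 1 with no filter, higher 2 and lower 2 after GC removal, and lower 2 with the block and GC removal together, while leaving out single libraries gave 0 to 5 higher and 0 to 7 lower. For Rnaseh1+Supt6 against Rnaseh1, members lower numbered 22 under median centring and members higher 17 after GC removal, with or without the block, and leaving out single libraries gave 23 to 30 higher and 9 to 13 lower. For NSN Rnaseh1 against NSN mCherry, leaving out single libraries gave 0 to 2 lower, and Fbxw4 turned to 0.19 without NSN Rnaseh1 replicate 2, alone or together with SN mCherry replicate 2, and to -5.91 without NSN Rnaseh1 replicate 1. Apart from what was removed in each setting, the cause was not tested.

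Nothing in the labels says that replicate numbers pair libraries, and deviations of same-numbered libraries correlated at -0.514 to 0.169 in the SN and NSN set and at 0 to 0.038 in the rescue set. With the replicate block, Rnaseh1 against mCherry had 16 members higher and 33 lower, Rnaseh1+Supt6 against mCherry 4 and 4, Rnaseh1+Supt6 against Rnaseh1 31 and 13, and the SN and NSN comparisons 0. TPM keeps no depth, so the counting error behind low values is unknown.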
